A study of Mus musculus with 6 samples.

Results

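The regions described here were called as open chromatin in regulatory T cells (Tregs) without the transcription factor CREB and lay apart from every region called in control Tregs. They are the peaks of the Foxp3creCREBfl/fl list on chromosomes 2 to 14 and 16 to 19 that had no CREBfl/fl peak within 2 kb of either edge. There were 2136 such isolated regions among 81445 Foxp3creCREBfl/fl regions on these chromosomes, which is 2.62% (Wilson 95% interval 2.52% to 2.73%), and 94499 regions in the whole list. No peaks of a list touched each other, so each region is 1 peak. They were chosen by the positions of the peaks called in both lists, so their number and height are descriptions and were not tested.

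Tregs were taken from the spleens of C57BL/6 mice aged 6 to 12 weeks. Mice of both groups carried floxed CREB alleles (the gene is Creb1). Foxp3creCREBfl/fl mice also carried a Foxp3-IRES Cre allele, so that Cre recombinase was made in cells that express Foxp3, and the controls, here CREBfl/fl, were negative for Foxp3cre. The labels call the groups Foxp3_KO and WT, and the genotypes are those the paper gives. The labels name 3 libraries per group, whereas the peaks used here come as a single list for each group. A difference between mice could therefore not be tested, no p-value is given, and all intervals cover counting error only.

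Tregs are CD4+ T cells that restrain immune responses and depend on Foxp3. In ATAC-seq a transposase inserts adapters into accessible DNA, and places where fragments pile up are called as peaks, often at promoters and enhancers. CREB binds the cAMP response element (CRE) and recruits coactivators, whereas AP-1 dimers of the Fos, Jun and BATF families bind a related word that lacks its central CpG.

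Most isolated regions were short, low peaks inside introns, and few were promoters. The strongest lay in the gene Creb5, a relative of CREB, and in introns of Ndst3, Gm17657, Cacnb4 and Cntln. Of the isolated regions 16.4% held the AP-1 word within 100 bases on either side of the summit. The share was 7.87% in shared regions of like height and 7.50% in isolated regions of the control list. Like height here means 19 to 25 fragments over the summit, the quartiles of the isolated regions, which themselves ran from 14 to 160. The full CRE stood in 3 of the 2136 regions (0.140%, interval 0.0478% to 0.412%), against 0.343% (0.233% to 0.506%) of shared regions of like height.

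The sequences of 4 of the strongest isolated regions are given first, to show what such a region contains. They are from the RefSeq copy of GRCm38.p6, 5′ to 3′, with the AP-1, RUNX, ETS and other words searched in capitals. A region over 300 bases is shown by 300 bases that hold its summit.
Creb5 region, chr6:53389390-53389689, strand +: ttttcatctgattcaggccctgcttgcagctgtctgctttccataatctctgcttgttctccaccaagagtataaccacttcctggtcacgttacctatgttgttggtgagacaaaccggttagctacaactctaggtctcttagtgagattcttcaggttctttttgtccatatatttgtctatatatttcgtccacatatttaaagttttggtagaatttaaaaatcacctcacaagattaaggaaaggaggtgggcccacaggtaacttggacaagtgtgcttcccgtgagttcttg
Ndst3 region, chr3:123653005-123653304, strand +: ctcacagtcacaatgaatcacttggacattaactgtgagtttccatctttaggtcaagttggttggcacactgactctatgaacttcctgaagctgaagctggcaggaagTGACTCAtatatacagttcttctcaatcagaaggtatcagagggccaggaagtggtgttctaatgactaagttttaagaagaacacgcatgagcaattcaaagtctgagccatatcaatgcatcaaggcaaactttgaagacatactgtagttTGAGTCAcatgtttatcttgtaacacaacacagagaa
Cacnb4 region, chr2:52449928-52450227, strand +: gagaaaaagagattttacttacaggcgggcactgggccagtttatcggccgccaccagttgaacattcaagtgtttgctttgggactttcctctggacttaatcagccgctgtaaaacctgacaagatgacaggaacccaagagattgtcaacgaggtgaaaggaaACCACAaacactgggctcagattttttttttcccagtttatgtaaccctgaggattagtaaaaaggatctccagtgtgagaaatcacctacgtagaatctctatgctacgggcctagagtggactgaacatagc
Cntln region, chr4:85059734-85059894, strand +: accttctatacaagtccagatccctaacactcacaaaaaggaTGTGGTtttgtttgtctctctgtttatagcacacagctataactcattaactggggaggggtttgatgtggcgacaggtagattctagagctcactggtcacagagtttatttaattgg
The Creb5 region held none of the words searched. The Ndst3 region held the AP-1 word at 2 places, and the Cacnb4 and Cntln regions held the RUNX word at 1 place each.

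The height of a peak was read as the pileup, the number of fragments (or extended reads) over the summit, and its local background, both recovered from the authors' fold and p-value. The region in Creb5, which encodes a CREB-related factor, had a pileup of 85 over a background of 5.64, an authors' fold of 12.9 and a -log10 p of 68.2. It covered 341 bp at an annotated non-coding exon within Creb5, 78.6 kb from the nearest start site of the gene and 13.0 kb from the nearest CREBfl/fl region. A further Creb5 region, at chr6:53445788-53446377, was the widest of all isolated regions with 590 bp and had a pileup of 72.

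The intronic region of Ndst3, which encodes a sulfotransferase of heparan sulfate synthesis, lay at chr3:123653005-123653324 with a pileup of 55 over the genome-wide background of 5.09. The nearest CREBfl/fl region was 136 kb away. The region in an intron of Gm17657 at chr17:29523528-29523816 also had a pileup of 55, and 64.0% of its bases were soft-masked in the reference, which marks repeats. Pileups of 48 were read in an intron of Cacnb4, which encodes a calcium channel subunit (chr2:52449914-52450227), and in an intron of Cntln, which encodes a centrosome protein (chr4:85059734-85059894). These lay 24.5 kb and 36.9 kb from a CREBfl/fl region. All but the Gm17657 region were mostly unmasked sequence.

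Behind these came 4 regions with a pileup of 43 each. They lay between Lrrc3b and its neighbours on chromosome 14, 72.3 kb from a CREBfl/fl region, near Fam71d on chromosome 12, in a coding exon of Sbno1 on chromosome 5 and in an intron of Cep112 on chromosome 11. Sbno1 encodes a helicase-related protein, and its region was 382 bp wide. The Cep112 region, in a gene for a centrosome protein, was 304 bp wide and lay 96.4 kb from a CREBfl/fl region. Apart from the Snx4 and Rgs14 regions, which stood over high local backgrounds, the next ones had pileups of 41 and were in introns of Nid1, a basement membrane protein, and Pole, the catalytic subunit of DNA polymerase epsilon. Regions with pileups of 40 and 39 followed in introns of Kcnma1, a potassium channel gene, and Ccdc141. This ranking by p-value was chosen after the values had been seen.

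Few isolated regions were this strong. The median pileup was 22, with quartiles of 19 and 25 and a range of 14 to 160, and 271 regions (12.7%) reached 30. Over the genome-wide background the median was 4.32-fold. The median -log10 p was 7.61 (range 3.57 to 68.2), and 25 regions reached 20. Shared regions, which overlap a CREBfl/fl region, had a median pileup of 73 and of 14.3-fold over the same background (n = 76215).

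The lists differed in how deep they reached, and this touches every isolated region. The genome-wide background was 8.44 fragments in the CREBfl/fl list and 5.09 in the Foxp3creCREBfl/fl list. The lowest pileups called over it were 19 and 14, or 2.25-fold and 2.75-fold. All 1639 isolated regions at the genome-wide background stood at least 2.75-fold over it, which is the lowest call of their list. Of these, 1471 (89.7%) stood above 3.43-fold, the median of the 4320 isolated CREBfl/fl regions at the background of their own list. Because the lowest calls of the lists differ, this share describes called peaks only. A CREBfl/fl pileup below its caller's threshold is not in the list, so it cannot be read from these data how much lower the control signal was.

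The isolated regions fell into 2 kinds by their background. At the genome-wide background (1639 regions) the median pileup was 21, the median distance to a CREBfl/fl region was 9863 bp, and 1298 regions (79.2%) had no other Foxp3creCREBfl/fl region within 5 kb. The other 497 had a higher local background, a median pileup of 25 and a median distance of 3272 bp. Of these, 204 (41.0%) had a Foxp3creCREBfl/fl region with a pileup of 100 or more within 5 kb.

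**Figure D1:**
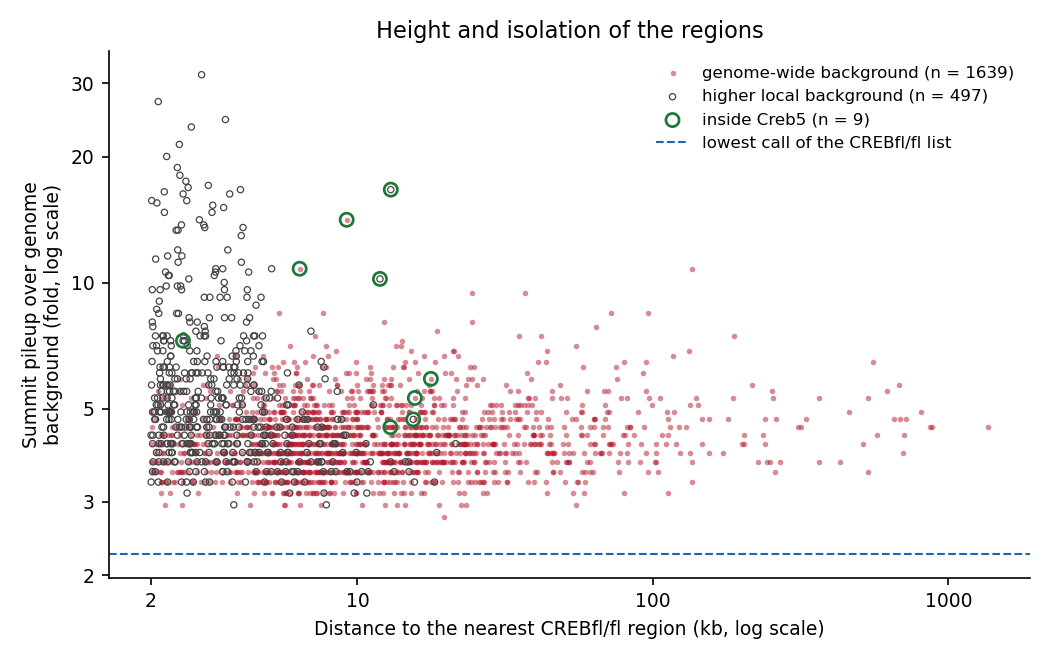
Each point is 1 isolated region, placed by its distance to the nearest CREBfl/fl region (horizontal, kb, log scale) and by its summit pileup over the genome-wide background of 5.09 (vertical, fold, log scale). Regions at the genome-wide background (filled, n = 1639) and at a higher one (open, n = 497) are set apart, the 9 regions inside Creb5 are ringed, and the dashed line marks 2.25-fold, the lowest call of the CREBfl/fl list. The highest points are open and lie near 2 to 4 kb, except for Creb5.

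The tallest isolated regions by pileup alone were of the second kind. Of the 20 with the highest pileups, 19 had a Foxp3creCREBfl/fl region with a pileup of 300 or more within 5 kb, and the exception was the Creb5 region. The tallest, with a pileup of 160, lay in a UTR of Atp5d next to Midn at chr10:80145544-80145675. Its background was 94.6 and its fold only 1.68, and the tallest region within 5 kb had a pileup of 889. Introns of Cap1, an actin regulator, and of 0610009E02Rik followed with pileups of 138 and 125. Their folds over the local background were 2.30 and 2.02.

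The next of these tall regions were in introns of Bmt2 (102), Tshz1 (96), Rell1 (89), Snx4 (87), Gtpbp8 (86) and Zfp865 (85). Tshz1 and Zfp865 encode zinc finger proteins, and Snx4 a sorting nexin of endosomes. Snx4 had the highest fold of this group except Creb5 and Rgs14, at 3.63 over a background of 23.3. The remaining ones lay near Gm45206 in an intron of Sema4b (84), in Rgs14 (83), Rab10os (83), Nfx1 (80) and Ttc16 (79), near Gm13482 (80) and upstream of Slc29a3 (78). Rgs14, a regulator of G protein signaling, had a fold of 3.70, and the antisense gene Rab10os a fold of 1.72.

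The limit of 2 kb had no gap in the data around it. The 5 isolated regions just inside it lay 2002, 2002, 2004, 2004 and 2010 bp from a CREBfl/fl region with pileups of 25, 22, 19, 17 and 29. The 5 Foxp3creCREBfl/fl-only regions just outside it lay 1998, 1993, 1991, 1987 and 1972 bp away with pileups of 36, 66, 25, 24 and 18. In all, 5230 Foxp3creCREBfl/fl regions (6.42%) overlapped no CREBfl/fl region, and 3094 of them had one within 2 kb. By the same rule 5585 of 86922 CREBfl/fl regions (6.43%) were isolated. The median distance of the isolated regions was 7366 bp. It was up to 5 kb for 701 regions (32.8%), over 10 kb for 816 (38.2%), over 50 kb for 169 (7.91%) and over 100 kb for 73 (3.42%).

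The most remote isolated region lay 1360 kb from any CREBfl/fl region, at chr6:45026452-45026535, 32.9 kb before the start of Cntnap2, a neuronal adhesion gene. Its pileup was 23. The next lay 877 kb away near the pseudogene Gm8768 (pileup 23), 866 kb away at the promoter of Cyp7b1, an oxysterol hydroxylase (23), 806 kb away near Phf20-ps (25) and 718 kb away in an intron of Kcnip4, a potassium channel partner (24). These 5 regions were 84 to 94 bp wide. The most remote regions were therefore close to the median height of the set.

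Width followed the same pattern as height. The median width was 100 bp (quartiles 86 and 126, range 84 to 590), and 481 regions (22.5%) had 84 bp, the lowest width in either list. Only 78 regions (3.65%) were wider than 200 bp, and 15 were wider than 300 bp. Shared regions had a median width of 247 bp, whereas shared regions with a pileup of 19 to 25, the quartiles of the isolated regions, had a median of 112 bp (n = 7282) and isolated CREBfl/fl regions one of 108 bp (n = 5585). This set of like pileup was chosen after the values of the isolated regions had been seen. The 5 widest were the Creb5 regions of 590, 406 and 386 bp, the Sbno1 region of 382 bp and a region of 355 bp at chr2:48511190-48511544, 54.2 kb from Gm13481, with a pileup of 25.

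The summits were placed in the GENCODE vM21 annotation. A summit within 1 kb of any annotated start site was called a promoter, and the others were assigned to coding exon, UTR, other exon, intron or intergenic sequence in that order. Introns held 1162 isolated regions (54.4%), intergenic sequence 621 (29.1%), promoters 230 (10.8%), UTRs 51 (2.39%), coding exons 41 (1.92%) and other exons 31 (1.45%). Promoters were rarer than among shared regions (28.8%) and among shared regions of like pileup (14.98%, interval 14.2% to 15.8%, against 9.52% to 12.2%). In isolated CREBfl/fl regions the share was 10.5%, within the interval of the isolated regions. Foxp3creCREBfl/fl-only regions with a control region nearby had a promoter share of 24.9%. The rule leaves out every summit near a control region, and with it those at promoters called in both lists, so the promoter share is a description of what the rule kept.

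**Figure D2:**
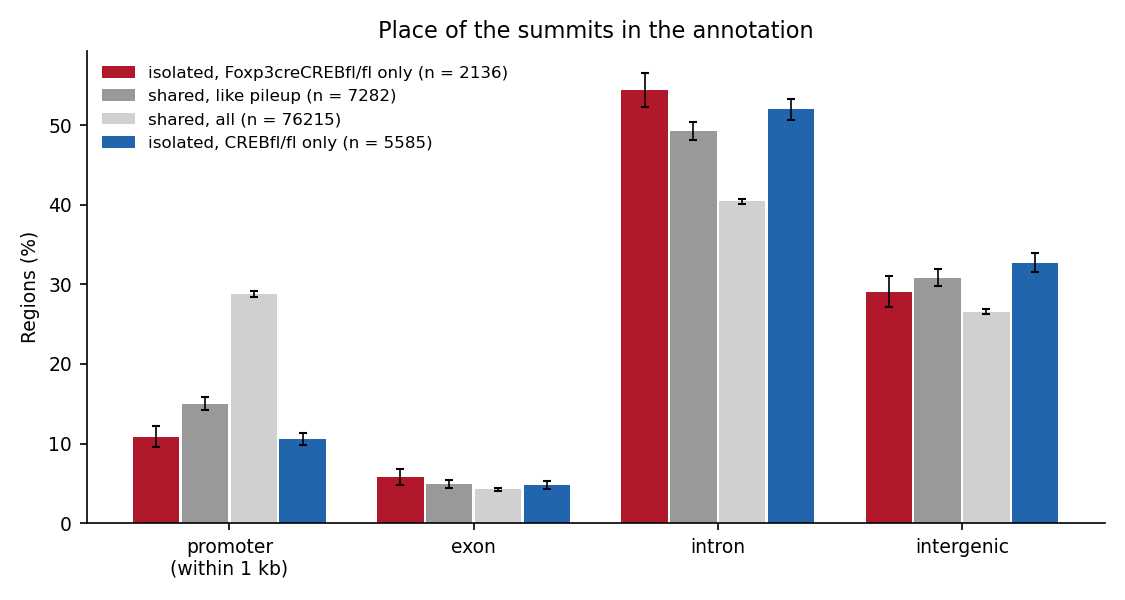
Bars give the share of regions (%) whose summit lay at a promoter, in any exon, in an intron or in intergenic sequence, and lines the Wilson 95% intervals. Colours mark isolated Foxp3creCREBfl/fl regions (n = 2136), shared regions of like pileup (n = 7282), all shared regions (n = 76215) and isolated CREBfl/fl regions (n = 5585). Both isolated sets had promoter shares near 10.8% and 10.5%, below the 28.8% of all shared regions.

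The median distance to a start site was 8.43 kb, or 14.4 kb to one of a protein-coding gene. By distance, 230 summits lay within 1 kb, 958 at 1 to 10 kb, 790 at 10 to 50 kb, 121 at 50 to 100 kb and 37 farther away. The nearest start site belonged to a protein-coding gene for 1276 regions (59.7%), to a processed pseudogene for 257, to a lincRNA for 190, to an antisense gene for 96 and to a miRNA for 50. These regions had 1865 different nearest genes, of which 1654 were nearest to 1 region, 170 to 2 and 41 to 3 or more.

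At promoters of protein-coding genes there were 168 isolated regions (7.87%), at 160 genes. Among the tallest were those at Morn4 (pileup 120) and Dqx1 (109), over backgrounds of 47.8 and 45.1 and with folds of 2.48 and 2.39. Slc12a7, a potassium chloride cotransporter (61), Cracr2b, a calcium channel regulator (53), and Gnai2, an inhibitory G protein subunit (47), also lay over raised backgrounds of 17.9 to 19.2. The Gnai2 region was soft-masked over its whole length.

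The promoter regions of Hps1 (35), B3galt1 (35) and Cdh23 (34) stood over the genome-wide background. Hps1 serves the making of lysosome-related organelles, B3galt1 encodes a galactosyltransferase and Cdh23 a cadherin. The B3galt1 region, at chr2:68118285-68118393, lay 43.7 kb from a CREBfl/fl region. At Cd3g, which encodes the gamma chain of CD3, a region with a pileup of 34 over 8.53 lay inside the gene, 0.549 kb before an internal transcript start, at chr9:44973542-44973644 and 3890 bp from a CREBfl/fl region.

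Neighbouring isolated regions were found at or near a few promoters. The promoter of Il17c, a cytokine of the IL-17 family, had regions with pileups of 20 and 18 whose summits lay 0.325 and 0.038 kb before its start. The promoter of Ocln, a tight junction protein, had 3 regions, with pileups of 23, 23 and 21. Skap1, an adapter of the T cell receptor, had a region with a pileup of 25 at an internal start site, at chr11:96482922-96483035, and another with a pileup of 20 in an intron nearby, at chr11:96485333-96485429. These genes were singled out after their values had been seen. In all, 257 isolated regions had another within 10 kb.

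By gene, 1622 of 18814 protein-coding genes (8.62%) had an isolated region in the gene or within 10 kb. Among them 1379 had 1 region, 181 had 2 and 62 had 3 or more. Genes with an isolated region were long, with a median of 52.7 kb against 17.0 kb for all, so long genes lead any ranking by number. Of the 14435 genes with any Foxp3creCREBfl/fl region in that window, 11.2% had an isolated one.

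Creb5 had the most, with 10 of its 21 Foxp3creCREBfl/fl regions isolated, and their pileups were 17 to 85. The CREBfl/fl list had 10 regions in the same window. Abr had 6 of 27. Of these, 3 lay within 1.2 kb before its start site, at chr11:76622585-76622671, chr11:76623087-76623190 and chr11:76623447-76623647, with pileups of 20, 19 and 23 over the genome-wide background. The nearest CREBfl/fl region was over 22 kb from each. The other 3 were in introns with pileups of 29, 23 and 24.

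Skap1 had 6 of 36 regions isolated, with pileups of 18 to 25, and Zbtb20, a transcriptional repressor, 6 of 59 with pileups of 15 to 27. Slc24a3, a sodium, potassium and calcium exchanger, had 5 of 16. The tallest of these, before its start, had a pileup of 43 over a background of 14.9, beside a region with a pileup of 213. Lrba, which is needed for the recycling of CTLA-4, had 5 of 26 with pileups of 16 to 23, all in introns. Tasp1, which encodes the protease that cleaves MLL, had 5 of 34 with pileups of 19 to 22. Inpp4b, a phosphoinositide phosphatase, had 7 of 161. The readthrough gene Gm20388, annotated over 4435 kb, had 9 of 404, and Fgfr2, annotated over 2961 kb, 6 of 161, most of which lay in or at other genes.

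The counts for pathway genes were read against 8.62% of genes and 2.62% of regions. The CREB family and coactivator genes had a median length of 76.1 kb, against 17.0 kb for all protein-coding genes. In this list 4 of 9 genes had an isolated region, namely Creb5, Crem, Crtc3 and Crebbp. That came to 13 of 92 regions (14.1%), of which 10 were in the window of Creb5. Crem, a cAMP-responsive relative of CREB, had a region with a pileup of 31 in an intron at chr18:3293099-3293257, 11.1 kb from a CREBfl/fl region. Crtc3, a coactivator of CREB, had one with a pileup of 28, 21.8 kb away. Crebbp, which encodes the acetyltransferase CBP, had one with a pileup of 22. Soft-masked bases made up 92.1% of the Crtc3 region, 95.5% of the Crebbp region and 0% of the Crem region. Of the classical CREB target genes 4 of 14 had one: Crem, Pde4b (27, 45.6 kb from a CREBfl/fl region), Pde4d (27 and 24) and Nr4a3 (19). Pde4b and Pde4d encode phosphodiesterases that break down cAMP, and Nr4a3 a nuclear receptor induced by T cell receptor signals. This came to 5 of 176 regions (2.84%), and the median length of the genes was 29.2 kb.

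Among T cell receptor signaling genes, of median length 44.5 kb, 7 of 15 had an isolated region, with 9 of 324 regions (2.78%). A region with a pileup of 54 lay near Nfatc2, an NFAT factor, over a background of 20.7 and beside a region with a pileup of 506. Prkcq, the kinase PKC-theta, had one with a pileup of 33 over 5.67 at chr2:11280334-11280469. Fyn, a Src-family kinase, had 3 with pileups of 32, 18 and 17 over backgrounds of 12.6, 5.96 and 5.15. Nfatc1 had regions with pileups of 28 and 28 over backgrounds of 9.37 and 8.90, and the window of Plcg1 held one with a pileup of 17. The Cd3g region also fell in the window of Cd3d. Per region, this list was thus close to the background.

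Of 13 genes of Treg identity, Il2ra, the alpha chain of the IL-2 receptor, and Nrp1, the neuropilin used to mark thymic Tregs, had isolated regions, which made up 3 of 179 regions. The Nrp1 regions had pileups of 36 and 29 over backgrounds of 10.9 and 11.3, beside a region with a pileup of 299. The region in the window of Il2ra, nearest to Il15ra, had 25 over 7.96. In effector and tissue Treg genes 4 of 18 had one: Pparg, a nuclear receptor of tissue Tregs (31), Rora (38 and 25), Ccr2 (26) and Ahr (20), or 5 of 211 regions. The Pparg region, at chr6:115382498-115382696, lay 20.7 kb from a CREBfl/fl region and stood over the genome-wide background. The Rora region with a pileup of 25 lay 70.0 kb from one.

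Of the helper T cell lists, Th2 genes had 2 of 13, at Ccr3 (18) and Rad50 (18). Rad50 carries the locus control region of the Th2 cytokine genes. Th1 and Th17 genes had 1 of 10, at Tbx21, which encodes T-bet, with a pileup of 55 over 18.8 beside a region with a pileup of 510. Naive and central T cell genes had 1 of 10, at Foxp1 (18), with 1 of 353 regions (0.283%). None of the 14 AP-1 and BATF genes on these chromosomes had an isolated region, with 0 of 162 regions. The interval of 0 to 21.5% of genes holds the background of 8.62%. The rule leaves out every region within 2 kb of a control region. A low share of regions in a list, here or at the naive and central T cell genes, can therefore not be read as a depletion.

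Genes of other cell types were listed as a check. Neuronal adhesion and channel genes, with a median length of 1135 kb, had an isolated region at 5 of 19, which were Kcnip4, Cntnap2, Dlg2, Opcml and Dscam, and 5 of their 45 regions (11.1%) were isolated. Their pileups were 20 to 24. Of 10 B cell markers 2 had one, Pax5 (20) and Blk (18), with 2 of 58 regions (3.45%). Myeloid markers had 1 of 12 genes, Cd14 (27), with 1 of 42 regions (2.38%). Erythroid and platelet markers had 1 of 8 genes, Epor (37 over 10.4), with 1 of 19 regions (5.26%). The 9 CD8 and NK cell markers had none among 20 regions. At promoters, the Treg markers Foxp3, Il2ra, Ctla4, Cd3e, Cd4 and Nrp1 had regions in both lists, with pileups of 338 to 980 in CREBfl/fl and 217 to 615 in Foxp3creCREBfl/fl Tregs. Of the other cell types Pax5 (167 and 133), Klrb1c (49 and 38) and Gata1 (234 and 115) had a promoter region in both lists, and the remaining 9 markers had none in either. Over background these were 19.8-fold and 26.1-fold at Pax5, 5.80-fold and 7.47-fold at Klrb1c, and 27.7-fold and 22.6-fold at Gata1. The part of other cells in the isolated regions was not tested. The promoter of Creb1 had a region in both lists (1065 and 757, or 126-fold and 149-fold over background), which says nothing about the floxed exon.

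The isolated regions were spread over all 17 chromosomes. Their share of regions ran from 1.93% on chromosome 17 (82 of 4249) to 3.26% on chromosome 6 (167 of 5129), where Creb5 lies. Of 435 windows of 5 Mb with a region, 396 held an isolated one, with a median of 5. The most, 19, stood in the window from 5 to 10 Mb of chromosome 4 (6.48% of its 293 regions), where none exceeded a pileup of 30, and in that from 50 to 55 Mb of chromosome 6 (5.56% of 342), which holds Creb5.

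**Figure D3:**
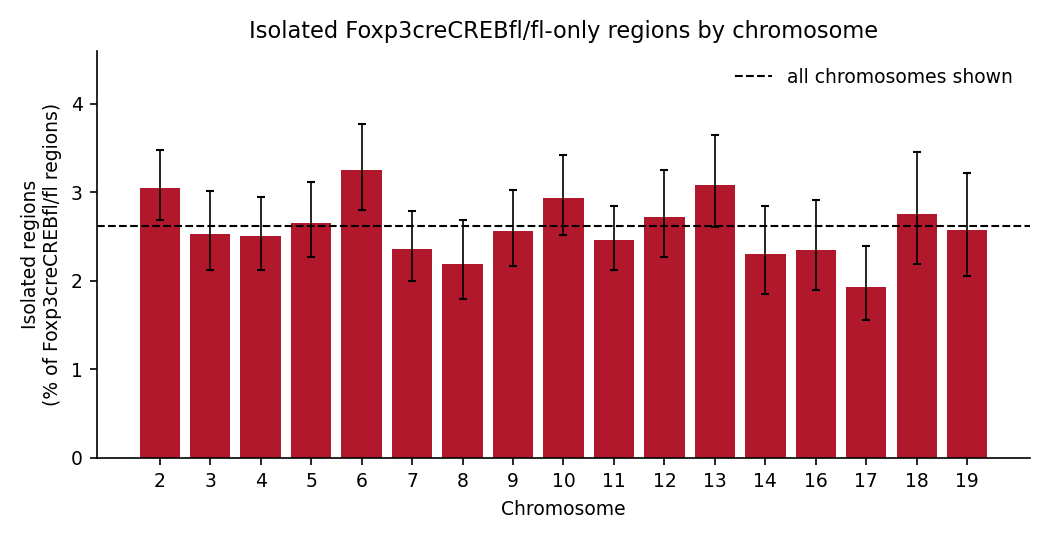
Bars give isolated regions as a share (%) of all Foxp3creCREBfl/fl regions on each of the 17 chromosomes, and lines the Wilson 95% intervals. The dashed line is the share over all of them, 2.62%; chromosome 6 is highest at 3.26% and chromosome 17 lowest at 1.93%.

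By base composition the isolated regions had a median GC content of 45.8% within 100 bases on either side of the summit, against 47.8% in shared regions of like pileup, 49.8% in all shared regions and 47.8% in isolated CREBfl/fl regions. In 1136 regions (53.2%) no base was soft-masked. In 300 (14.04%, interval 12.6% to 15.6%) most of the region was, against 11.2% of shared regions of like pileup and 11.6% of isolated CREBfl/fl regions. The part of repeats in the calls was not tested.

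Short words bound by known factors were then searched in the same window on both strands. The AP-1 word TGAGTCA stood in 351 isolated regions (16.4%, interval 14.9% to 18.1%). It stood in 7.87% of shared regions of like pileup (interval 7.27% to 8.51%), in 8.20% of all shared regions, in 7.50% of isolated CREBfl/fl regions (6.84% to 8.22%) and in 9.41% of Foxp3creCREBfl/fl-only regions near a control region. The interval of the isolated regions overlapped neither of the others shown. These intervals cover counting error only, and no difference between mice can be read from them. AP-1 words had been seen in earlier results of these data, so the share is no independent support. Strong isolated regions with the word are represented by 57 bases around it, with the AP-1 word in capitals. The last is a promoter region.
Creb5 intron region, chr6:53409271-53409327, strand +: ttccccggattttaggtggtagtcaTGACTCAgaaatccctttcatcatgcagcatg
Fam71d region, chr12:78740478-78740534, strand +: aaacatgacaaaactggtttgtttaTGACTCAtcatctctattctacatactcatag
Pole region, chr5:110313268-110313324, strand +: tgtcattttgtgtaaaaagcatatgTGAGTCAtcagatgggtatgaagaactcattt
Nid1 region, chr13:13467384-13467440, strand +: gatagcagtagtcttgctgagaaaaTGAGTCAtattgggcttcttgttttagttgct
Gm11746 region, chr2:144941182-144941238, strand +: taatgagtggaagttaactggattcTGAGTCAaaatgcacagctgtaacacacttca
Diaph3 region, chr14:86825887-86825943, strand +: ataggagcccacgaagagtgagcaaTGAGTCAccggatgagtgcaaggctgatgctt
Gm45064 region, chr7:89561112-89561168, strand +: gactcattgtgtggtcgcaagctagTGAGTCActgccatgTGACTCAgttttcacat
Hps1 region, chr19:42770721-42770777, strand +: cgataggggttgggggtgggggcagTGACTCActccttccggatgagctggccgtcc
The Gm45064 stretch held the word at 2 places. The word of the Gm11746 stretch lay just before the called region, which spans chr2:144941223-144941498, and the words of the others lay inside theirs. These regions had pileups of 55, 43, 41, 41, 38, 38, 36 and 35 in the order shown. All stood over the genome-wide background and lay 6.38 kb (Creb5) to 187 kb (Gm11746) from a CREBfl/fl region. The Diaph3 region was in an intron of that gene, a formin, and the Gm45064 region in an intron of a lincRNA gene 34.0 kb from Prss23.

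The other words differed from shared regions of like pileup by fewer percentage points, and rare words such as the CRE rest on few regions. RUNX (TGTGGT) stood in 23.5% of isolated regions and 24.2% of shared regions of like pileup, and the CRE half-site (TGACG) in 9.36% and 9.23%. The CTCF word stood in 3.04% and 2.51%, ETS (CCGGAAG) in 1.83% and 2.29%, the word of Gata3 and its relatives (AGATAAG) in 4.12% and 3.27% and forkhead (TGTTTAC) in 3.56% and 3.03%. The control palindrome TGAGCTCA, made of the same bases as the CRE, stood in 0.562% and 0.659%. Another control of the same bases, TAGCGCTA, holds a CpG as the CRE does. It stood in 0 isolated regions (interval 0 to 0.180%) and in 0.0687% of shared regions of like pileup. The full CRE (TGACGTCA) stood in 3 isolated regions (0.140%), in introns of Slc25a12 (pileup 32), Nedd4l (25) and Rnf17 (20), against 0.343% of shared regions of like pileup, 0.862% of all shared regions and 0.662% of isolated CREBfl/fl regions. The Rnf17 region, nearest to Gm24392, also held the AP-1 word. The NRF1 word stood in 1 isolated region (0.0468%), at the promoter of Ncan (24). It stood in 0.0137% of shared regions of like pileup, 0.293% of all shared regions and 0 isolated CREBfl/fl regions.

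**Figure D4:**
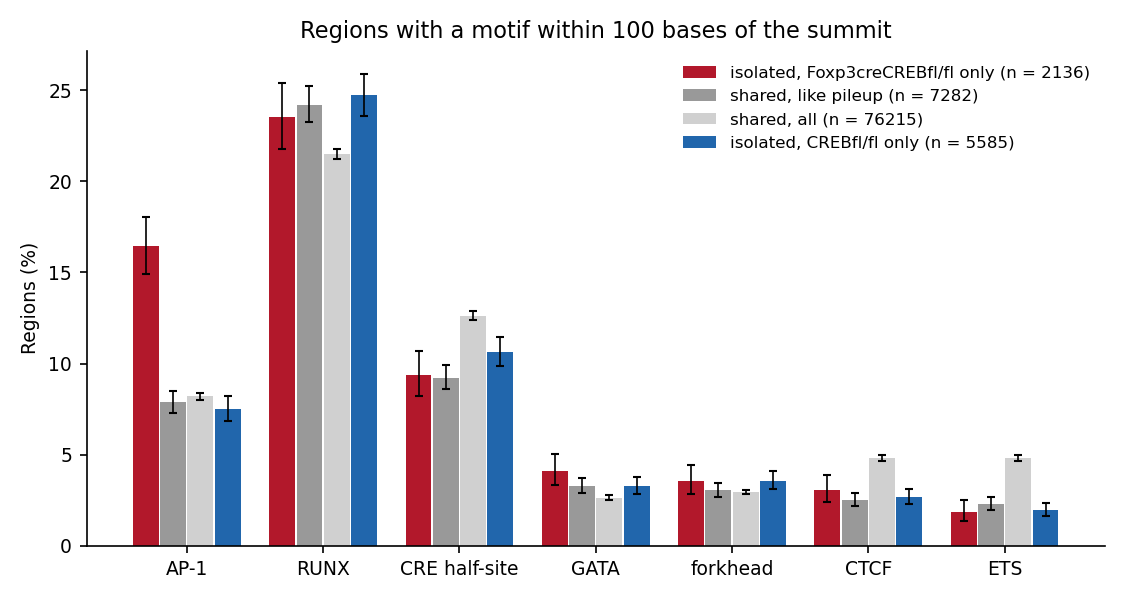
Bars give the share of regions (%) with each word within 100 bases on either side of the summit, and lines the Wilson 95% intervals, for isolated Foxp3creCREBfl/fl regions (n = 2136), shared regions of like pileup (n = 7282), all shared regions (n = 76215) and isolated CREBfl/fl regions (n = 5585). AP-1 stands at 16.4% in the first set and at 7.50% to 8.20% in the others.

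To place the AP-1 word among all words, each of the 8192 words of 7 letters, read on both strands, was counted in the same way. The AP-1 word, here as TGACTCA, had the largest excess of isolated regions both over shared regions of like pileup (8.56 percentage points) and over isolated CREBfl/fl regions (8.93). Next came ATGACTC (3.73) and CTGAGTC (3.67), which overlap it, and 99 of 100 words had an excess under 1.31 points over shared regions of like pileup. Against shared regions of like pileup, the largest deficit was that of CTTCCTC, by -2.65 points. This ranking was added after the share of the AP-1 word had been seen.

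The AP-1 word stood close to the summits. Its median distance was 24 bases in isolated regions, and 184 of 351 (52.4%) had it within 25 bases. In shared regions of like pileup the median was 30 bases (43.3% within 25) and in isolated CREBfl/fl regions 36 bases (35.8%). The RUNX word of the isolated regions had a median distance of 35.5 bases.

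**Figure D5:**
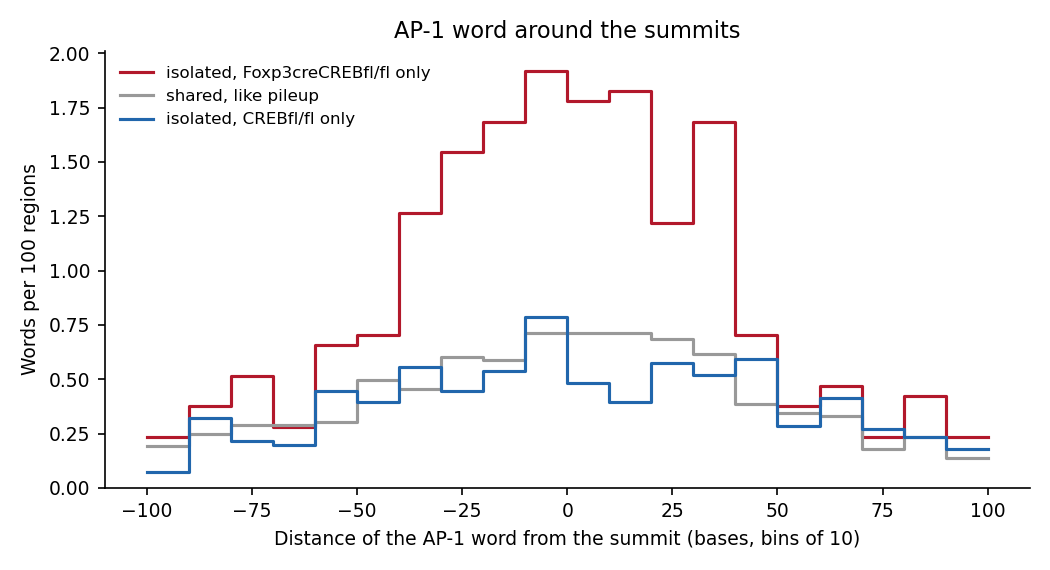
Lines give the number of AP-1 words per 100 regions (vertical) in bins of 10 bases by their distance from the summit (horizontal) in isolated Foxp3creCREBfl/fl regions, shared regions of like pileup and isolated CREBfl/fl regions. In the first set the highest bin, next to the summit, reaches 1.92 words per 100 regions.

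By place, the word stood in 17.8% of the isolated regions in introns, 16.6% of those in intergenic sequence and 11.3% of those at promoters (26 of 230). In shared regions of like pileup these shares were 8.31%, 8.68% and 4.49%. At the genome-wide background it stood in 15.7% of isolated regions (258 of 1639) and at a higher one in 18.7% (93 of 497). Among regions at the genome-wide background the share was 18.3% at pileups of 14 to 18, 15.4% at 19 to 22, 12.1% at 23 to 29 and 27.6% (27 of 98, interval 19.7% to 37.1%) from 30 upwards. In shared regions of these classes it was 7.52%, 7.84%, 9.27% and 8.75%.

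The word was also in 24 of the 78 isolated regions over 200 bp wide (30.8%, interval 21.6% to 41.7%) and in 15.9% of the narrower ones. It stood in 8 of the 25 regions with a -log10 p of 20 or more. In the 169 regions with no CREBfl/fl region within 50 kb it stood in 18 (10.7%, interval 6.84% to 16.2%), against 18.7% (15.98% to 21.7%) of the 701 within 5 kb. Among the remote regions the share was thus lower than among those closer to control regions, and the intervals overlapped slightly. The interval of the remote regions also holds the 7.87% of shared regions of like pileup and the 7.50% of isolated CREBfl/fl regions. By chromosome it ran from 10.3% on chromosome 12 to 25.7% on chromosome 19.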

How the data were processed

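Open chromatin was measured by Omni-ATAC-seq in splenic Tregs, with 3 libraries per group by the labels, whereas the methods name sequencing in duplicate. Paired reads of 75 bp were trimmed (Trim Galore), aligned (Bowtie2) and filtered (SAMtools) by the authors, who then called peaks with MACS2. Neither the tool versions nor the way in which libraries were joined into 1 list per group is given in the sources used here. The deposited lists give for each peak a score, a fold (the authors' ratio of pileup to background at the summit), p and q values as -log10, and the summit offset in bp. Lists hold called peaks only: 100771 for CREBfl/fl (median pileup 90) and 94499 for Foxp3creCREBfl/fl (median 66). Sequencing depth per library is unknown.

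The methods name mm9, but positions were read as GRCm38. On it 0 peaks passed a chromosome end, and 51.3% of 93145 transcript start sites of protein-coding genes had a Foxp3creCREBfl/fl summit within 1 kb, against 12.0% after a shift by 100 kb (51.8% and 12.7% for CREBfl/fl). Pileup and background were recovered from fold and p for 99.94% and 99.97% of peaks (tolerance 0.002 in -log10 p), and the steps were tested on simulated data. Although the stated call used no local background, only 32.6% and 29.6% of peaks had the genome-wide one.

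Touching peaks would have been merged, but there were none. Shares have Wilson 95% intervals. Words were matched exactly on both strands. The regions, gene lists and word list were chosen with earlier results of these data known, and AP-1 words had been seen in those results, so their share here is no independent support. Named are the 20 highest pileups, the 10 genes with the most isolated regions, the 10 tallest promoter regions, the 5 widest regions and up to 4 genes of each list, except for 1 item that is not reported here. Genes beyond that rule, among them those of the ranking by p-value, the regions just inside the limit, the most remote ones and those printed for the AP-1 word, were chosen after their values were seen. The gene lists held 18814 protein-coding genes as background. Python 3.11.15 with numpy 2.4.6, pandas 2.3.3, scipy 1.17.1 and matplotlib 3.10.9 was used.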

Additional observations from a re-analysis of the deposited data

How the results depend on the processing

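No paired analysis was possible because each group has 1 peak list and its libraries are not separate in it; leaving out a library could not be run for the same reason. With other limits on the distance to a CREBfl/fl region, the number of isolated regions was 3012 at 500 bp, 1435 at 5 kb and 816 at 10 kb, against 2136 at 2 kb. With a -log10 q of at least 5 it was 1218 in the Foxp3creCREBfl/fl list alone and 1730 in both lists, and 2115 with peaks within 100 bp merged. The promoter share of 10.8% became 12.3% at 500 bp and 9.42% with that q in both lists. With start sites within 500 bp it was 6.88%, within 2 kb 17.7% and with protein-coding genes alone 7.87%. The median distance to a start site of 8.43 kb became 9.22 kb at 5 kb, 11.1 kb at 10 kb and 14.4 kb with protein-coding genes, where the intergenic share became 35.8%. The median width of 100 bp became 104 and 109 bp with that q in 1 or both lists, the median pileup over background 4.72-fold in both cases, and the median soft-masked share 1.14% and 0.750%, or 10.9% within 100 bases on either side of the summit, against 0 in the regions themselves. The AP-1 share of 16.4% became 13.2% within 50 bases of the summit and 13.8% in the whole region, where shared regions of like pileup had 5.42% and 6.32%. It stayed between 14.95% and 16.5% with the other limits, the merging and the q thresholds, which were added after seeing the data. Among the other alternatives to the shares of place and the medians, 27 moved the value by less than its interval. Of 20 shares of the remaining words in the narrower window or the whole region, 10 moved by more. What limits these results is that 1 list per group gives no spread between mice. Pileups near the threshold, 14 at the genome-wide background, are known only where a call was made. A region absent from the control list may have been just under its threshold, which was 19 at the genome-wide background. Over a higher local background, a control pileup above 19 may also have gone uncalled.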

Other observations

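Regions of the same kind on the chromosomes left out of the set were counted alike. Chromosome 1 had 243 of 6489 Foxp3creCREBfl/fl regions (3.74%, Wilson interval 3.31% to 4.23%), chromosome 15 had 128 of 4277 (2.99%) and chromosome X had 74 of 2288 (3.23%). The AP-1 word stood in 16.9%, 14.1% and 20.3% of them. Their median pileups were 22, 22 and 23 and their median widths 104, 105 and 100 bp. The share on chromosome 1 was above that of every chromosome in the set, whose highest was 3.26% on chromosome 6.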
